A study of Mus musculus with 2 samples.

Results

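Gm21269, Gm10619 and Gm45006 are 3 noncoding loci that lie beside each other on mouse chromosome 7 and gave rise to small RNAs of piRNA length in the juvenile testis. Their small RNAs were taken as every sequence of 18 to 40 nt in the 2 libraries that matches an annotated transcript of one of the 3 genes exactly, on either strand. This gave 6713 distinct sequences of 22794309 in the series, of which 6618 occurred in the Tdrkh+/- library, 338 in the Tdrkh-/- library and 243 in both. The loci were chosen by their measured values, the low ratio of Tdrkh-/- over Tdrkh+/- reads at 24 to 30 and 31 to 37 nt, so every value that compares the libraries describes that choice and supports nothing by itself.

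The libraries came from testes of mice aged 11 days post partum, and each pooled 5 pairs of testes from 1 genotype. In Tdrkh-/- mice both copies of Tdrkh lacked exons 2 to 4, which hold the start codon, after EIIa-Cre excision of a floxed allele. Tdrkh+/- mice, the controls, carried 1 such deleted copy themselves. Mice were on a C57Bl6/129 background, from targeted cells combined with CD-1 embryos, and the Cre transgene was bred out. EIIa drives Cre in the early embryo, so the deletion is not limited to germ cells. Independent knockout lines were made, and which of them supplied these testes is not given in the sources used here. RNA of 15 to 40 nt was cut from gels, and the deposited tables give each sequence with its read count. With 1 library per genotype the differences have no replicate check, and no p-value can be given. Intervals below cover counting error only, because PCR copies without molecular identifiers are not independent molecules.

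piRNAs are small RNAs bound by PIWI proteins, mostly in germ cells, where they silence transposons and other targets. Many of those that appear as male germ cells enter meiosis come from long noncoding RNAs that match little else in the genome. Such precursors are often transcribed in opposite directions from a shared start region, which in the later stages is bound by the transcription factor A-MYB. A PIWI protein takes up a precursor fragment that begins with U, and the fragment is then trimmed at its 3′ end. TDRKH, which carries Tudor and KH domains and sits on mitochondria, holds PIWI proteins where the trimming takes place.

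In all, 60973266 reads were listed for Tdrkh-/- and 43172204 for Tdrkh+/-. Reads were scaled to microRNA reads, of which there were 2476104 and 2338091 in that order. Over exons 2 to 4 of Tdrkh (chr3:94422802-94424690, GRCm38) the Tdrkh-/- library held 0 sense reads, at or under a floor of 3 counts, and the Tdrkh+/- library held 17. The other Tdrkh exons held 802 and 1122.

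Gm21269 (ENSMUSG00000108448.2, a lincRNA) runs rightward on the plus strand over chr7:73816546-73838898 in GRCm38, with 4 exons of 12456 bases in all. Gm10619 (ENSMUSG00000074067.9, a lincRNA) runs leftward on the minus strand over chr7:73781429-73816503, with 3 annotated transcripts whose exons merge into 6 blocks of 5495 bases. The starts of the pair face away from each other with 42 bases between them. Gm45006 (ENSMUSG00000108548.1), whose annotation type marks it as still to be tested experimentally, is 1 exon of 690 bases on the minus strand at chr7:73797603-73798292. It lies in the last intron of a Gm10619 transcript, on the same strand, so its reads and those of unspliced Gm10619 RNA cannot be told apart. Reads were compared with exons and, around the starts, with a promoter window, and introns were not analysed here.

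Before the values, 1 group of matches was set aside. Within exon 1 of Gm21269, 102 bases at chr7:73822573-73822674 resemble the B1 repeat, a short interspersed element present in very many genes. In all, 99 of the 6713 sequences lay there and matched more than 20 genes on a strand. Sense to Gm21269 these were 45 sequences with 47156 reads in Tdrkh-/- and 0 in Tdrkh+/-. Antisense to it were 54 sequences, with 928 reads in Tdrkh-/- and 3946 in Tdrkh+/-, and none of the 99 occurred in both libraries. Such reads cannot be given to Gm21269. Whether either deposited table had repeat matches removed is not given in the sources used here. With 3 sequences of the Mir7234 hairpin, which lies inside exon 1 of Gm21269, also left out, 6611 sequences remained. Of these, 6446 were sense to a locus (1160 reads in Tdrkh-/- and 80006 in Tdrkh+/-) and 165 antisense (18 and 470 reads). Of the 6611, 6597 matched no other gene.

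Abundant small RNAs of 24 to 30 nt of each locus in Tdrkh+/- are printed 5′ to 3′ because they were among the most read at this length and show the base pattern. Capitals mark the 5′ base and an A at position 10, and positions are those of GRCm38.
Gm21269, chr7:73817221-73817247, plus strand: Uuggagauugaauuuuugaaaaagccu
Gm21269, chr7:73817220-73817247, plus strand: Uuuggagauugaauuuuugaaaaagccu
Gm21269, chr7:73817687-73817713, plus strand: Uaccaugacugucugcuuagaacggcu
Gm21269, chr7:73825405-73825431, plus strand: UagaagaaaAagaggacuuuagccacu
Gm21269, chr7:73823779-73823806, plus strand: UagaauuacAggacucuccaaacagcca
Gm10619, chr7:73810424-73810452, minus strand: Uguucaauggauuugaaguacuugggaac
Gm10619, chr7:73809700-73809726, minus strand: Uacaagcaagcacccacuuuucaggau
Gm10619, chr7:73809739-73809766, minus strand: UaacucuaaAuggacuuuggccccaggu
Gm10619, chr7:73816381-73816406, minus strand: CagacaacuAuucaccuggcccccgg
Gm10619, chr7:73809733-73809760, minus strand: Uaaauggacuuuggccccaggucaauuc
Gm45006, chr7:73797786-73797813, minus strand: UgcacuggaAugauaguaauggaugaug

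The first of these was also the most abundant in Tdrkh-/-, with 82 reads against 3497 in Tdrkh+/-. Its neighbour begins 1 base earlier, shares its 3′ end and had 37 reads against 2483. The small RNA at 73817687 had 36 reads against 2760, that at 73825405 had 32 against 2213, and that at 73823779 had 10 against 1338. All 5 lie in exon 1 of Gm21269 and start with U. Those listed for Gm10619 were less abundant. The most read of them, at 73810452 in exon block 4, had 19 reads in Tdrkh-/- and 852 in Tdrkh+/-. In exon block 5 the 3 sequences listed had 18 against 809, 10 against 784 and 4 against 239, in the order printed. The sequence that starts with C, from exon block 1, had 23 against 547. It was the least reduced of the 46 sequences with at least 200 reads in Tdrkh+/-, at 25.2-fold lower per microRNA read. The Gm45006 sequence had 10 reads against 650. Each listed sequence was lower in Tdrkh-/-, which follows from picking them by Tdrkh+/- reads at loci chosen for a low ratio.

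In Tdrkh+/-, sense reads of 24 to 30 nt numbered 49008 for Gm21269, 14310 for Gm10619 and 3106 for Gm45006. In Tdrkh-/- they numbered 729, 179 and 35 in the same order. Per 1000000 microRNA reads, Gm21269 stood at 20961 in Tdrkh+/- and 294 in Tdrkh-/-, Gm10619 at 6120 and 72.3, and Gm45006 at 1328 and 14.1. All 3 loci were thus low in Tdrkh-/-, and most of the signal came from Gm21269. The reduction was 71.2-fold for Gm21269 (log2 ratio -6.15, 95% exact conditional binomial interval -6.26 to -6.05). It was 84.7-fold for Gm10619 (-6.40, interval -6.62 to -6.19) and 94.0-fold for Gm45006 (-6.55, interval -7.08 to -6.08). The interval of Gm45006 overlaps both others, and those of Gm21269 and Gm10619 overlap each other from -6.26 to -6.19. With the repeat sequences kept, the log2 ratio of Gm21269 would be -1.16, while those of Gm10619 and Gm45006 would stay at -6.40 and -6.55. In bulk testis, fewer cells of a type and less RNA per cell cannot be told apart. Compared per length, the order in Tdrkh+/- was Gm45006 at 4501 reads per kb of exon, Gm21269 at 3934 and Gm10619 at 2604. Together the loci made up 0.219% of all reads of 24 to 30 nt outside microRNAs, structural RNAs and repeats in Tdrkh+/-, and 0.00702% in Tdrkh-/-.

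To set these values beside other genes, sense reads were counted for the 4007 hosts, which are genes of protein-coding or long noncoding type whose reads of 24 to 30 nt reached 500 over both libraries, a read shared by several genes being divided equally among them. At this length 73.5% of hosts were at least 2-fold lower in Tdrkh-/-, with a median log2 ratio of -1.58, so a fall of that size is the ordinary case. A fall of at least 32-fold was seen in 34 hosts, or 0.849%, and all 3 loci were among them. Counted from the lowest ratio, Gm45006 ranked 8, Gm10619 ranked 11 and Gm21269 ranked 15. By reads in Tdrkh+/-, the order was reversed, with Gm21269 at rank 15, Gm10619 at 112 and Gm45006 at 636.

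Lengths of 31 to 37 nt made up 55.3% of all analysed reads in Tdrkh-/- and 15.98% in Tdrkh+/-. The loci were low at these lengths too. In Tdrkh-/- the reads numbered 82 for Gm21269, 74 for Gm10619 and 8 for Gm45006, against 6636, 3786 and 433 in Tdrkh+/-. The reductions were 85.7-fold, 54.2-fold and 57.3-fold in that order, and 70.1-fold for the loci together (log2 ratio -6.13, interval -6.36 to -5.91). Among the hosts the median log2 ratio at this length was 1.72. Only 1.22% of hosts were at least 2-fold lower at 31 to 37 nt, and for 1.2%, a set of 48 that held all 3 loci, the fall reached 2-fold at both lengths. As the choice of the loci used this contrast, nothing is read from these counts.

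**Figure D1:**
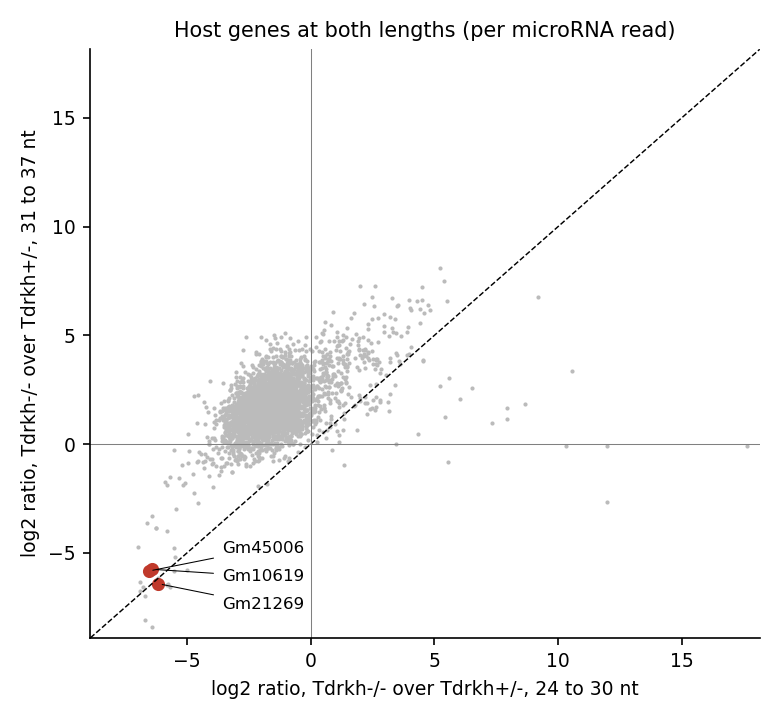
Each grey point is 1 of the 4007 host genes, with its log2 ratio of Tdrkh-/- over Tdrkh+/- at 24 to 30 nt on the horizontal axis and at 31 to 37 nt on the vertical axis, per microRNA read, and a count of 0 drawn at 3 counts. The red points are the 3 loci, which sit beside the dashed line of equal ratios at the lower left, while most hosts lie above that line around the medians of -1.58 and 1.72.

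The ratio of reads of 31 to 37 nt to reads of 24 to 30 nt differed little between the libraries for the loci together, at 0.174 in Tdrkh-/- and 0.163 in Tdrkh+/-. The Tdrkh-/- ratio was 1.06 times that in Tdrkh+/- (95% interval of the ratio of ratios 0.900 to 1.26). With windows of 33 to 36 and 26 to 28 nt it was 1.27 times (interval 1.04 to 1.55), which no longer includes 1. The hosts' median was 9.99 times, with quartiles of 6.0 and 16.1, and 1.5% of hosts had a lower ratio in Tdrkh-/-. Gm21269 was one of these at 0.831 (interval 0.660 to 1.05), which spans no change. Gm10619 was at 1.56 (interval 1.19 to 2.05) and Gm45006 at 1.64 (interval 0.756 to 3.56). For the minus-strand loci, 1 site each moves the value. At 73809760 in Gm10619, the 5′ end with most long reads, Tdrkh+/- had 2671 long reads and 387 short ones, and Tdrkh-/- had 57 and 12. That end held 77.0% of the long Gm10619 reads in Tdrkh-/- and 70.5% in Tdrkh+/-. Without it the fold was 1.27. Without the end at 73798003, Gm45006 had 7 long reads in Tdrkh-/- and 75 in Tdrkh+/-, and its fold was 8.69. All 7 came from the end at 73797813, where Tdrkh+/- had 11 long reads and 743 short ones. With all its reads the interval of Gm45006 lay below the hosts' lower quartile, and without the end at 73798003 its fold lay between their quartiles. Its long reads in Tdrkh-/- are too few to settle where it stands among the hosts.

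The most abundant longer sequences begin at ends that also make short ones, and they show what an extended form of the same small RNA looks like. Capitals again mark the 5′ base and any A at position 10.
Gm21269, chr7:73817220-73817254, plus strand: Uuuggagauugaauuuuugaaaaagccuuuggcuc
Gm10619, chr7:73809728-73809760, minus strand: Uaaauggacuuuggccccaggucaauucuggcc

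The Gm21269 sequence of 35 nt is the 28 nt sequence at 73817220 with 7 more bases at its 3′ end, and it had 17 reads in Tdrkh-/- and 1403 in Tdrkh+/-. The Gm10619 sequence of 33 nt adds 5 bases to the 28 nt sequence at 73809760 and had 25 against 1162. In Gm10619 the longer form was the more abundant in both libraries, against 4 and 239 reads for the 28 nt form.

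The commonest length of each locus was the same in both libraries, while Gm10619 had a smaller share of reads at 24 to 30 nt in Tdrkh-/- (64.6%) than in Tdrkh+/- (74.7%). That length was 27 nt for Gm21269 (36.9% of its reads in Tdrkh-/- and 31.6% in Tdrkh+/-) and for Gm10619 (19.5% and 23.4%). It was 28 nt for Gm45006 (41.9% and 39.2%). Gm10619 had a smaller second peak at 33 nt in both libraries. For all analysed sequences in the series the commonest length was 35 nt for Tdrkh-/- and 27 nt for Tdrkh+/-, and the means over 24 to 40 nt were 33 nt for Tdrkh-/- and 28.8 nt for Tdrkh+/-. Those of the loci were 28.1 and 28.3 nt. Reads that share a 5′ end were compared too. Of 57 ends with 5 or more reads in both libraries, 23 had a longer mean in Tdrkh-/- and 33 a shorter one, with a median difference of -0.11 nt. Over the whole series, 81.9% of 320059 shared beginnings (the first 24 nt), under the same minimum, were longer in Tdrkh-/-, by a median of 2.37 nt.

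**Figure D2:**
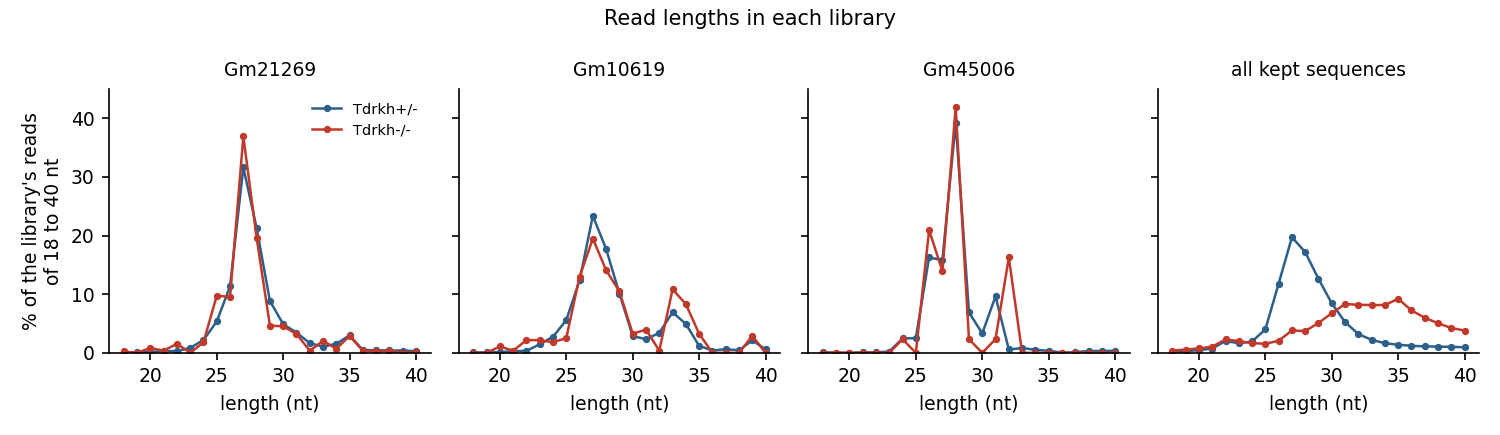
Percent of each library's reads of 18 to 40 nt (vertical axis) at each length (horizontal axis, nt), with Tdrkh+/- in blue and Tdrkh-/- in red. The panels of the 3 loci hold sense reads. The panel of all analysed sequences holds reads of either strand, with or without a transcript match. At the loci both curves peak at 27 or 28 nt, while for all sequences the Tdrkh-/- curve peaks at 35 nt. The Tdrkh-/- curve of Gm45006 rests on 43 reads.

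The reads that were left in Tdrkh-/- were mostly of sequences also found in Tdrkh+/-. Of the 943 sense reads of 24 to 30 nt in Tdrkh-/-, 95% belonged to sequences also present in Tdrkh+/-, against 59.8% for all analysed sequences of this length. Of the Tdrkh-/- reads of 24 to 40 nt, 97.7% began at a 5′ end used in Tdrkh+/-. The loci were chosen for having far more reads in Tdrkh+/-, 66424 against 943 at 24 to 30 nt. All analysed sequences of this length had 30360147 against 13441434. More Tdrkh+/- reads make a shared sequence or end more likely, so the choice of loci raises these shares. At 24 to 40 nt the loci had 2603 5′ ends, of which 2596 were used in Tdrkh+/- and 185 in Tdrkh-/-. Use was uneven. In Tdrkh+/-, 26 ends held 50% of the reads, and the same ends held 54.7% of the reads in Tdrkh-/-. The 10 most used ends held 33.4% and 36.5%, and 8 of the 10 were also among the 10 most used in Tdrkh-/-. Spearman's rho between the libraries was 0.53 over 206 ends with at least 50 reads in Tdrkh+/-, with low counts in Tdrkh-/-. It is given as a description, since ends of a locus share their transcript and library.

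Sequences abundant in Tdrkh+/- were all lower in Tdrkh-/-, to different extents. They were picked by their Tdrkh+/- reads at loci chosen for a low ratio, so their being lower follows from that choice. The 46 sequences of 24 to 30 nt with at least 200 reads in Tdrkh+/- were lower by a median of 73.3-fold, and 6 of them had 0 reads in Tdrkh-/-. Among the other 40 the reduction ran from 25.2-fold to 731-fold. A few ends went the other way. The end at 73825998 in exon 1 of Gm21269 had 12 reads in Tdrkh-/- and 4 in Tdrkh+/-, and that at 73783501 in the last Gm10619 block had 7 and 1. Among sequences with 0 reads in Tdrkh+/-, the highest in Tdrkh-/- had 9 reads. It lies in the B1-like stretch of Gm21269 and also matches other genes. Passage of reads from one library into the other during sequencing, which would also leave shared sequences, was not tested.

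**Figure D3:**
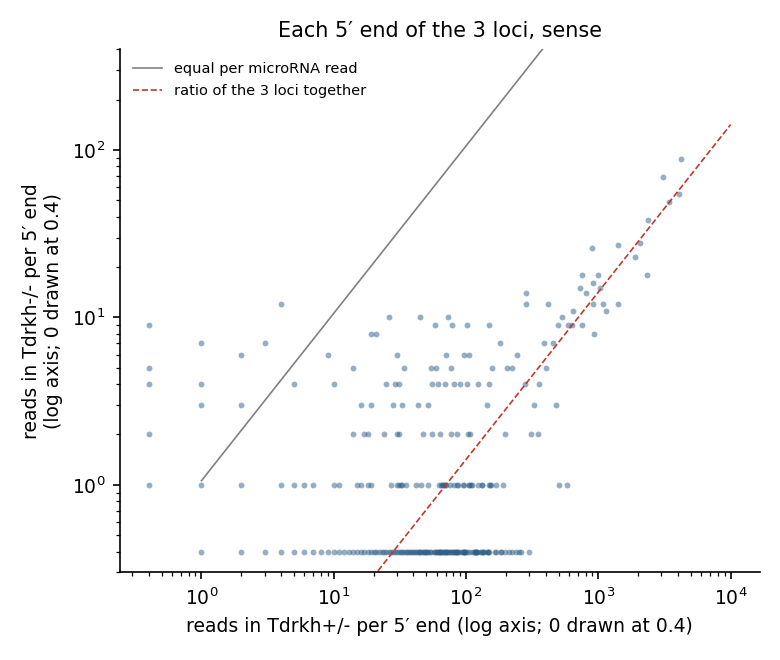
Each point is a 5′ end of the 3 loci (sense reads of 24 to 40 nt), with its reads in Tdrkh+/- on the horizontal and in Tdrkh-/- on the vertical axis, both logarithmic, and 0 drawn at 0.4. The most used ends follow the dashed line of the loci's joint ratio at 24 to 30 nt, which lies 74.6-fold below the grey line of equal reads per microRNA read, and some rarely used ends lie nearer the grey line.

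Along the transcripts the small RNAs were uneven, densest in the first 2 kb of Gm21269 and in a few exons of Gm10619. Exon 1 of Gm21269, 9486 bases long, held 91.3% of that locus's reads of 24 to 30 nt in Tdrkh+/-, at 4714 reads per kb, against 71.5 per kb in Tdrkh-/-. Counted from the midpoint between the starts, its first kb had 11265 reads per kb, its second 9155, the stretch from 2 to 5 kb 1855 and that from 5 to 10 kb 4211. Of the 11028 reads in the first kb, the adjacent ends at 73817220 and 73817221 held 2561 and 3557. Exons 2, 3 and 4 had 867, 944 and 1490 reads per kb. Exons 2 and 3 had 0 reads in Tdrkh-/-. With 3 counts in place of 0 they were 43.8-fold and 41.7-fold lower, and the upper limits of their log2 ratios were -5.13 and -5.06. Exon 4 was 83.6-fold lower, with 51 reads in Tdrkh-/- and 4026 in Tdrkh+/-.

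Gm10619 was uneven in another way, with 5141 reads per kb in Tdrkh+/- in its first kb and 5329 from 2 to 5 kb. Its exon block 4, 104 bases at chr7:73810367-73810470, had 25231 reads per kb in Tdrkh+/-, the highest density of any exon of the loci. Blocks 1 and 2 had 5139 and 6971 reads per kb, blocks 3 and 5 had 1469 and 3197, and block 6, the farthest from the start, had 622. In block 4, Tdrkh-/- had 23 reads against 2624, a 121-fold reduction. The end at 73810452 alone held all 23 of these reads and 1905 of the 2624. At 31 to 37 nt the same block had 5 reads against 21, a 4.45-fold reduction whose log2 interval runs from -3.92 to -0.71. Those 5 reads began at 1 end, 73810454. Block 5 held 84.0% of the locus's reads of 31 to 37 nt in Tdrkh+/-.

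Some reads matched the transcripts across exon junctions. No minimum length past a junction was required and introns were not matched, so such a read need not come from spliced RNA. Gm21269 had 7, 5 and 15 such reads at its 3 junctions in Tdrkh+/-. Gm10619 had 1 read from block 1 to 3 and 1 from block 2 to 3. None of these junctions had a read in Tdrkh-/-, where the 3 loci had 1160 sense reads in all, so a lack of junction reads is within what that depth can miss.

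**Figure D4:**
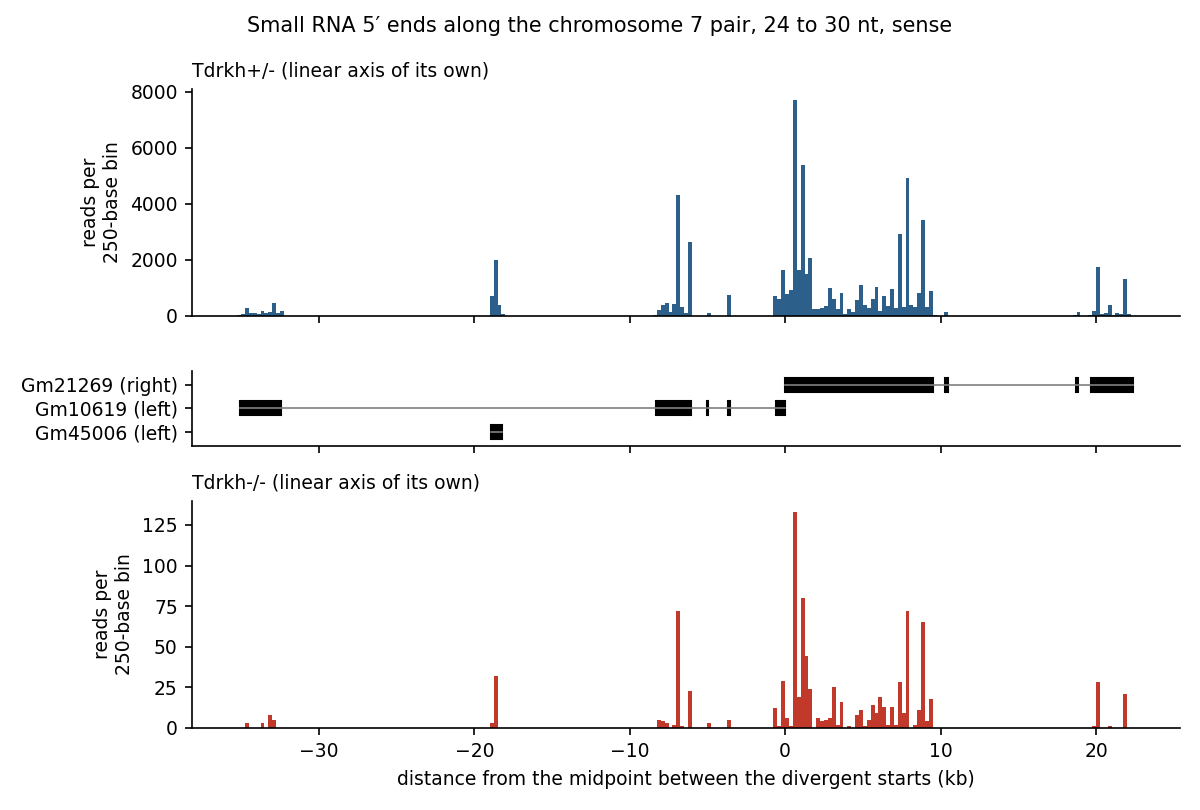
Reads of 24 to 30 nt whose 5′ ends fall in each bin of 250 bases (vertical axes, each library on its own linear scale) by distance in kb from the midpoint between the divergent starts (horizontal axis), with exons as black boxes and the direction of transcription in brackets. Both libraries have high bins within 2 kb to the right of the starts, between 5 and 10 kb to the right (4938 reads in Tdrkh+/- and 72 in Tdrkh-/- in the highest of these) and in the middle Gm10619 blocks, while the vertical scales differ because Tdrkh-/- had 943 such reads and Tdrkh+/- 66424.

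Most small RNAs of the loci began with U, the usual first base of piRNAs cut from a single precursor. At 24 to 30 nt, 89.5% of reads in Tdrkh+/- (95% Wilson interval 89.3% to 89.8%) and 86.7% in Tdrkh-/- (84.4% to 88.8%) began with U. U makes up 25.9% to 27.0% of the transcripts. Over all analysed sequences of this length the shares were 82.9% and 76.3%. The loci differed among themselves, with 90.8% for Gm21269, 83.7% for Gm10619 and 97.0% for Gm45006 in Tdrkh+/-, and 88.5%, 77.1% and 100% in Tdrkh-/-. The C-starting sequence of Gm10619 printed above gave 547 of its 14310 reads in Tdrkh+/- and 23 of its 179 in Tdrkh-/-. Among reads of 31 to 37 nt, 164 of 164 began with U in Tdrkh-/- (interval from 97.7%) and 93.5% in Tdrkh+/-.

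An A at position 10 marks small RNAs made by cleavage opposite a U-starting partner. At 24 to 30 nt it was found in 27.8% of reads in Tdrkh+/- and 27.0% in Tdrkh-/- (interval 24.3% to 29.97%). A makes up 25.05% to 29% of the transcripts. Over all analysed sequences the shares were 33.9% and 43.6%, the higher one in Tdrkh-/-, while the interval of the loci in Tdrkh-/- includes their Tdrkh+/- share. The base after the 3′ end of a read was U for 37.2% of short reads in Tdrkh+/- and 42.5% in Tdrkh-/-, and for 37.1% and 47.0% of long ones. A U there is where the next fragment could begin. Among reads of 24 to 40 nt, the 3′ end of one and a 5′ end downstream lay 1 base apart, that is end to start, in 8.90% of pairs within 50 bases in Tdrkh+/- and 22.3% in Tdrkh-/-, where an equal spread gives 2%. In Tdrkh+/- the share at 2 bases was higher still, at 9.22%, and those at 17 and 13 bases were 6.16% and 5.84%, so 1 base did not stand out there. In Tdrkh-/- the shares at 2, 13 and 14 bases were 12.9%, 8.82% and 7.76%. The share at 1 base there rests on 839 weighted pairs, against 1694914 in Tdrkh+/-, so the libraries are not ranked by it. Pairs are weighted by both read counts, so a few abundant sequences set these shares.

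Antisense reads were few. At 24 to 30 nt there were 366 in Tdrkh+/- and 4 in Tdrkh-/-. Of 381 antisense reads of Gm21269 at all lengths in Tdrkh+/-, 70.6% began within 500 bases of its start, and of 86 of Gm10619, 87.2% did. Of the 269 such reads of Gm21269, 138 were reads of 24 to 30 nt from 1 site, at 73817010 and ends 1 base away. That site lies near the far edge of the 500 bases. In Tdrkh-/- none of the 4 and 14 antisense reads began within 500 bases of the start.

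Sense and antisense reads of 24 to 30 nt overlapped by 10 nt at their 5′ ends in 32.4% of 40186 weighted pairs in Tdrkh+/-. This is the overlap left by ping-pong, in which PIWI proteins cut paired transcripts in turn. In Tdrkh-/- there was 1 weighted pair, which cannot show a pattern. The Tdrkh+/- value rests on 1 antisense site. The pair of ends that made up 60.1% of the 10 nt pairs is printed with the overlapping bases in capitals.
Gm21269 sense, chr7:73817001-73817028, plus strand: UAGUCUUAGUgcuuugcuccugugcacu
Gm21269 antisense, chr7:73816986-73817010, minus strand: ACUAAGACUAagaagccagcagccc

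The sense 5′ end had 79 reads of 24 to 30 nt and the antisense one 99, and both had 0 in Tdrkh-/-. Without this antisense site (138 of the 366 antisense reads, counting ends 1 base away), the share at 10 nt was 16.8% of 23764 weighted pairs, and the most frequent overlap was 5 nt at 25.6%.

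**Figure D5:**
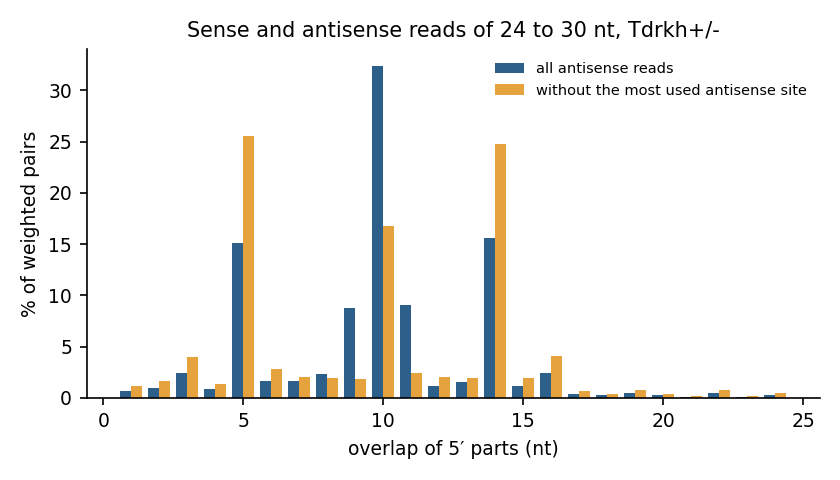
Percent of weighted sense and antisense pairs (vertical axis) by overlap of their 5′ parts in nt (horizontal axis), Tdrkh+/-, reads of 24 to 30 nt, with all antisense reads (blue) and without the most used antisense site (orange). With all reads the highest bar is at 10 nt (32.4%), and without the site it is at 5 nt (25.6%).

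The shared start region is printed since loci on both sides of it were low in the same library. It is the RefSeq promoter window of Gm10619 (GRCm38.p6, minus strand, chr7:73816454-73816753), 300 bases in which the first base of Gm10619 is at position 251 and that of Gm21269, on the other strand, at position 208. Capitals mark matches to CAACNG, a core of MYB-type binding sites, searched on both strands.
Start region: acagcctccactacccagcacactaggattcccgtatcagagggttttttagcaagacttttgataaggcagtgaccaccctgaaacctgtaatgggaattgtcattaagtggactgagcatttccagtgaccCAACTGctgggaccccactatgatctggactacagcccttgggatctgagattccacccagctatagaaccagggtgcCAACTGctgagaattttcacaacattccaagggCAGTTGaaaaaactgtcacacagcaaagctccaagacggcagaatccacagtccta

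The motif occurs 3 times, at positions 134, 212 and 245, the last on the strand not printed. Of 32851 RefSeq promoter windows of this length, 35.0% hold at least 1 match and 1.70% hold at least 3. A match is a run of letters and shows no binding. RefSeq places its own Gm21269 start 9378 bases further downstream, and the promoter window there holds 1 match. In Tdrkh+/-, 593 plus-strand reads lay in the Gm21269 side of the window. Few reads touched the 42 bases between the annotated starts, 17 on the minus strand and 3 on the plus strand, and 61 minus-strand reads lay on the Gm21269 side, beyond the annotated Gm10619 start. In Tdrkh-/- the counts were 0 throughout.

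Of the genes next to the pair, Fam174b differed from it at the longer lengths, though its reads of 24 to 30 nt were below the 500 required of a host. Fam174b, a protein-coding gene 4510 bases away, had 61 short reads (24 to 30 nt) in Tdrkh-/- against 340 (log2 ratio -2.56, interval -2.98 to -2.16). At 31 to 37 nt it had 189 and 20 (3.16, interval 2.49 to 3.90), as for most hosts. St8sia2, which makes polysialic acid, is 100221 bases away on the other side and had 2 and 7 short reads and 7 and 10 long ones, too few to place.

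The 5 hosts nearest to the loci together, by distance over the 2 log2 ratios, were all noncoding and on several chromosomes. They were C230062I16Rik (-6.17 at 24 to 30 nt and -6.17 at 31 to 37 nt), Gm30132 (-6.27 and -6.47), Gm14244 (-6.11 and -6.62), Gm21221 (-5.78 and -6.43) and D130020L05Rik (-5.81 and -6.49). The divergent pair on chromosome 17 was lower still and more abundant. In Tdrkh+/-, Gm49794 had 453113 reads of 24 to 30 nt, with a log2 ratio of -6.79, and Gm10505 had 250797 and -6.90, against -6.18 for Gm21269 counted in the same divided way. Their folds in the long to short ratio were 1.16 and 1.09, near the 1.06 of the chromosome 7 loci.

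Genes of the piRNA pathway were also looked at as hosts. Of 25 such genes in the annotation, 7 had enough reads to be hosts. At 24 to 30 nt the fall reached 2-fold for 4 of these, against 73.5% of hosts. Tdrkh itself, the deleted gene, was 1 of the 4, with 261 reads in Tdrkh-/- and 660 in Tdrkh+/-. None of the 7 was 2-fold lower at both lengths, which is true of only 1.2% of all hosts, so nothing is read from that count. Their median log2 ratios were -1.17 and 1.53, close to the hosts' -1.58 and 1.72. Mov10l1, the helicase that feeds precursors to the pathway, had 178 short reads in Tdrkh-/- and 495 in Tdrkh+/-. Piwil2, the PIWI protein MILI, had 2359 and 2046. Mybl1, which encodes A-MYB, was below the read minimum with 16 and 119. Of 19 early meiosis genes 6 were hosts, with median log2 ratios of -1.0 and 0.88. Of these, 3 were lower by 2-fold or more at 24 to 30 nt, against 73.5% of hosts.

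To show how other cell type markers stood, their small RNAs were summed at 24 to 30 nt, per 1000000 microRNA reads. The 5 meiotic and later germ cell markers (Sycp1, Sycp3, Hormad1, Smc1b, Piwil1) summed to 353 in Tdrkh-/- and 1090 in Tdrkh+/-, with none at 0. The 5 general germ cell markers summed to 311 and 1201, and the 6 spermatogonial ones to 3684 and 4545. Most reads of the spermatogonial sum came from Lin28a, with 7694 in Tdrkh-/- and 5711 in Tdrkh+/-. The other 5 spermatogonial genes were each lower in Tdrkh-/-, and the median log2 ratio of that list was -1.23. Somatic lists summed to 150 and 185 for 5 Sertoli cell genes, 124 and 248 for 4 Leydig cell genes, and 311 and 154 for 3 peritubular cell genes, with 1 Sertoli gene at 0 in each library and 1 Leydig gene at 0 in Tdrkh-/- over both lengths. The general germ cell, Sertoli, Leydig and peritubular lists had 1 host gene each, and Sycp3 was counted in both germ cell lists. These sums count piRNA-length fragments, not messenger RNA.

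MicroRNA reads, of 18 to 25 nt, are shorter than piRNAs. Mir34c, which is abundant in meiotic germ cells, had 119 reads in Tdrkh-/- against 549 (log2 ratio -2.29, interval -2.59 to -2.00). Mir34b had 21 and 43 (-1.12), Mir449a 48 and 37 (0.29) and Mir449c 4 and 9, while Mir449b had 0 in both. The somatic Mir202 and Mir143 were at 0.16 and -0.14, and Mir145a at 0.37. Thus Mir34c was lower in the same library as the loci, by less, and the part of cell composition in the loci's reduction was not tested.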

How the data were processed

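Small RNAs of 2 pooled testis libraries, 1 per genotype, were analysed. The authors deposited raw read counts per distinct sequence of 18 to 40 nt, and the submitters' processing notes name Bowtie and mm9 without a role. Counts were used as deposited. Sequences were matched exactly and on both strands to GENCODE M21 transcripts (GRCm38), since the tables hold no coordinates. Promoter sequence is from RefSeq (GRCm38.p6). Matches to structural RNAs, sequences in more than 20 genes on a strand and microRNA reads (18 to 25 nt, sense to a hairpin) were set aside. Ratios are per microRNA read, with 95% exact conditional binomial intervals. The ratio of ratios has the interval of a sample odds ratio, and shares have Wilson intervals. For a fold, 3 counts stood in for 0. The matching and the ratios were tested on simulated or independently searched data. Python 3.11.15, NumPy 2.4.6, SciPy 1.17.1, pandas 2.3.3, Numba 0.67.0 and Matplotlib 3.10.9 were used. Depth was 60973266 reads for Tdrkh-/- and 43172204 for Tdrkh+/-.

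The members and gene lists were chosen with earlier results of these data known. Named besides the 3 loci were the chromosome 17 pair, the 5 hosts nearest to the loci in both ratios, the adjacent genes, the most abundant sequences of each locus, and the listed genes. Alternatives were other scalings, distinct sequences, sequences read once left out, sequences of 1 gene, 1 substitution and other length windows. Outside transcripts, only the promoter window was used here.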

Additional observations from a re-analysis of the deposited data

Results flagged for a closer look

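Some reads of the loci fall outside both length windows, above the 3 counts that a count of 0 allows. At 38 to 40 nt there were 12 sense reads in Tdrkh-/- and 1248 in Tdrkh+/-, a 110-fold reduction per microRNA read. At 18 to 23 nt there were 41 and 1479, a 38.2-fold reduction.

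The repeat sequences set aside in exon 1 of Gm21269 gave 47156 sense reads in Tdrkh-/- and 0 in Tdrkh+/-. On the antisense strand they gave 928 and 3946. No such sequence was listed in both tables, and the cause was not tested.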

How the results depend on the processing

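With 1 library per genotype no replicate could be left out. All log2 ratios stayed negative under every alternative, while the fold of the long to short ratio lay on both sides of 1. Per read listed in each table the log2 ratios at 24 to 30 nt were -6.57 for Gm21269 and -6.82 for Gm10619, and -6.55 for the loci at 31 to 37 nt. Per transcript-matching read they were -6.78, -7.03, -7.18 for Gm45006, and -6.76. These scalings move every ratio by -0.42 and -0.63. With each distinct sequence counted once they were -4.07, -4.13, -3.65 and -4.50, the 5′ U shares were 72.9% in Tdrkh+/- and 83.6% in Tdrkh-/-, the fold of the long to short ratio was 0.739 and the 10 nt overlap share 17.2%.

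With sequences read once left out, 5′ U in Tdrkh+/- was 90.1% and the overlap share 36%. Windows of 26 to 28 and 33 to 36 nt gave -5.85 at the longer lengths, 90.1% 5′ U in Tdrkh+/-, a fold of 1.27 (interval 1.04 to 1.55, which excludes 1) and an overlap share of 28.4%.

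Allowing 1 substitution gave -4.26 for Gm21269, -5.53 for the loci at 31 to 37 nt, 88.9% and 39.3% 5′ U, a fold of 0.516 and an overlap share of 31.3%. In the B1-like stretch this added 2354 short reads for Tdrkh-/- and 0 for Tdrkh+/-. In alternatives chosen after seeing the data, leaving out that stretch gave -5.98 for Gm21269, 88.9% 5′ U in Tdrkh+/- and an overlap share of 31.3%, and keeping sequences of more than 20 genes gave -1.16 for Gm21269, -5.16 for the loci at 31 to 37 nt and a fold of 0.0840. The size of the reduction of Gm21269 thus depends on setting aside repeat sequences, which cannot be given to that locus. With only sequences that match no gene outside the 3 loci, its log2 ratio was -6.19. Counts of 0 to 5 in Tdrkh-/- limit what single ends and exons can show.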
